A study of Mus musculus with 10 samples.

Results

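The 32 genes described here encode the fibroblast growth factors (FGFs), their receptors and the inhibitors that FGF signalling itself induces, out of 22359 protein-coding genes. They were chosen by name and comprised 22 ligand genes (*Fgf1* to *Fgf18* and *Fgf20* to *Fgf23*), 4 receptor genes (*Fgfr1* to *Fgfr4*) and 6 feedback inhibitor genes (*Spry1*, *Spry2*, *Spry4*, *Spred1*, *Spred2* and *Dusp6*). The authors profiled histone marks by ChIP-Rx, which is ChIP-sequencing with foreign cells added as a constant reference, in mCherry-positive mouse cells. These were sorted at day 4 from embryoid bodies (EBs), aggregates of differentiating embryonic stem (ES) cells. The WT group was the *Scl:mCherry* line, heterozygous for an mCherry insertion at *Scl*, whose product SCL (TAL1) is a transcription factor needed for blood formation. The Delta group was the Scl Δ/Δ:mCherry line, made from the WT line and homozygous for a deletion of the basic helix-loop-helix (bHLH) domain of SCL. Both lines thus carried the same reporter, came from J1 ES cells and were expanded from single sorted cells, so that each genotype was 1 clonal line, and the labels give the strain as C57Bl/6 X Sv129 for some libraries and with other numbers after Sv for the rest. There were 4 histone marks, 2 genotypes and 1 library for each, with 8 peak lists and 2 inputs that were not analysed here. No difference given below therefore has a replicate check, none was tested, and all are differences between libraries.

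FGFs are secreted proteins that bind FGF receptor tyrosine kinases together with heparan sulphate and activate the RAS and MAP kinase cascade. In the gastrulating embryo they act in the formation and migration of mesoderm, the tissue from which blood and heart arise. Sprouty and Spred proteins act against the cascade upstream of MAP kinase, and DUSP6 removes the activating phosphates from ERK. H3K4me3 is found at promoters, mostly those in CpG islands, and H3K27ac at active promoters and enhancers. H3K27me3 is deposited by Polycomb repressive complex PRC2 and H2AK119ub by PRC1, and both are found at silenced developmental genes. A promoter with H3K4me3 and H3K27me3 is called bivalent, although peaks from a population cannot show that both marks lay on the same chromosome.

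A gene was counted as carrying a mark when a peak of that library came within 2500 bp of the start (TSS) of any of its protein-coding transcripts. The lists held 15412 to 16038 peaks for H3K4me3, 4571 to 5269 for H3K27ac, 10881 to 11345 for H3K27me3 and 2388 to 4922 for H2AK119ub. Read depth cannot be read from these lists, a weak region may be missing from a list, and a peak list cannot show a general change in the level of a mark. H2AK119ub peaks were weak, with 99 of 4922 in WT and 49 of 2388 in Delta at a −log10 q of at least 3, and none lay on chromosome X, so *Fgf13* and *Fgf16* could not be called for it. Fewer cells with a mark and less of it per cell cannot be told apart in sorted populations. Of 10 haemangioblast and mesoderm markers, all 10 carried H3K4me3 in both libraries, as did 60.7% of all genes in WT and 60.3% in Delta. H3K4me3 was not particular to this list, being also at 4 of 4 neural and 3 of 4 endoderm markers in both libraries. It was at 3 (WT) and 4 (Delta) of 6 pluripotency markers and at 0 and 1 of 5 muscle markers. Of the 10 haemangioblast and mesoderm markers, 9 also carried H3K27me3 in WT and 8 in Delta, against 34.8% and 32.7% of all genes. H3K27ac was listed at 4 of these 10 in WT (*Tal1*, *Lmo2*, *Gata2* and *Hhex*) and at 1 in Delta (*Mixl1*), at 0 of 4 neural, 0 of 4 endoderm and 0 of 5 muscle markers in either, and at 0 and 1 of 6 pluripotency markers, against 19.9% of all genes in WT and 22.8% in Delta. The part of this marker difference in the FGF results was not tested. The bHLH deletion itself could not be checked in peak lists.

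The sequences just upstream of 4 members are printed to show how far their promoters differ in CpG content. Each stretch holds the 200 bases before a TSS, 5′ to 3′, read from mm9 (NCBIM37), overlaps no annotated exon, and has its CpG dinucleotides in capitals. The first lines are from members with H3K27ac in 1 library only, *Spred2* and *Spry2*, which encode feedback inhibitors. *Fgf7* and *Fgf6*, which encode paracrine ligands, carried no mark in either library.
Spred2, chr11:19824178-19824377 (plus strand): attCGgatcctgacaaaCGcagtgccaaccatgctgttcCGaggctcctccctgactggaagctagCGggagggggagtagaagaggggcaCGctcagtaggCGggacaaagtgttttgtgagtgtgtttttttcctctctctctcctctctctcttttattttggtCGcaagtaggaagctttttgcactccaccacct
Spry2, chr14:106296037-106296236 (minus strand): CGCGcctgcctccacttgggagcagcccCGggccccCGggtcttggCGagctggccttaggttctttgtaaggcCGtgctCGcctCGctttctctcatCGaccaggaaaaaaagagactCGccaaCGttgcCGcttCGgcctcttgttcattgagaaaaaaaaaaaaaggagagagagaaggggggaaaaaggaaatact
Fgf7, chr2:125860194-125860393 (plus strand): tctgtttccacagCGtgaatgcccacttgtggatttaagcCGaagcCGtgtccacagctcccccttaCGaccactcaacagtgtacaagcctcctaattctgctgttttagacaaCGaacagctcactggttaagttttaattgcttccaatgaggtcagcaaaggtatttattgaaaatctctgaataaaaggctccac
Fgf6, chr6:126965360-126965559 (plus strand): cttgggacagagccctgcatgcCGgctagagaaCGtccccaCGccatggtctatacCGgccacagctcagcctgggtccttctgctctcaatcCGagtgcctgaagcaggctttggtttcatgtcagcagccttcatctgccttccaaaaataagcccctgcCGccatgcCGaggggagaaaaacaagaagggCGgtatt
The stretch of *Spry2* held 13 CpGs, with an observed to expected ratio of 0.861. Those of *Spred2*, *Fgf7* and *Fgf6* held 7, 5 and 8, with ratios of 0.518, 0.520 and 0.496. The stretches were 55%, 52%, 44.5% and 57% G and C in the same order.

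In each library most FGF genes carried both H3K4me3 and H3K27me3, and few carried H3K27ac. H3K4me3 was listed at 25 of 32 members in WT and 27 in Delta, against 60.7% and 60.3% of all protein-coding genes. H3K27me3 was listed at 23 in each, or 71.9% of members, against 34.8% of all genes in WT and 32.7% in Delta. H3K27ac was listed at 3 members in WT and 6 in Delta (9.38% and 18.8%), against 19.9% and 22.8% of all genes. H2AK119ub was listed at 11 members in WT and 7 in Delta (34.4% and 21.9%), against 9.21% and 5% of all genes. H3K4me3 and H3K27me3 were found together at 21 members in WT and 22 in Delta, of which 20 were the same genes, against 32.4% and 30.1% of all genes. The shares of members with either Polycomb mark or with both H3K4me3 and H3K27me3 were thus higher than those of all genes, in both libraries. The share with H3K27ac was lower in WT and close to that of all genes in Delta. The Delta count, however, included *Fgf20* and *Fgfr2*, where the mark lay only at TSSs shared with other genes. With such TSSs left out, it was at 3 of 30 members in WT and 4 in Delta, against 15.9% and 18.4% of genes.

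**Figure D1:**
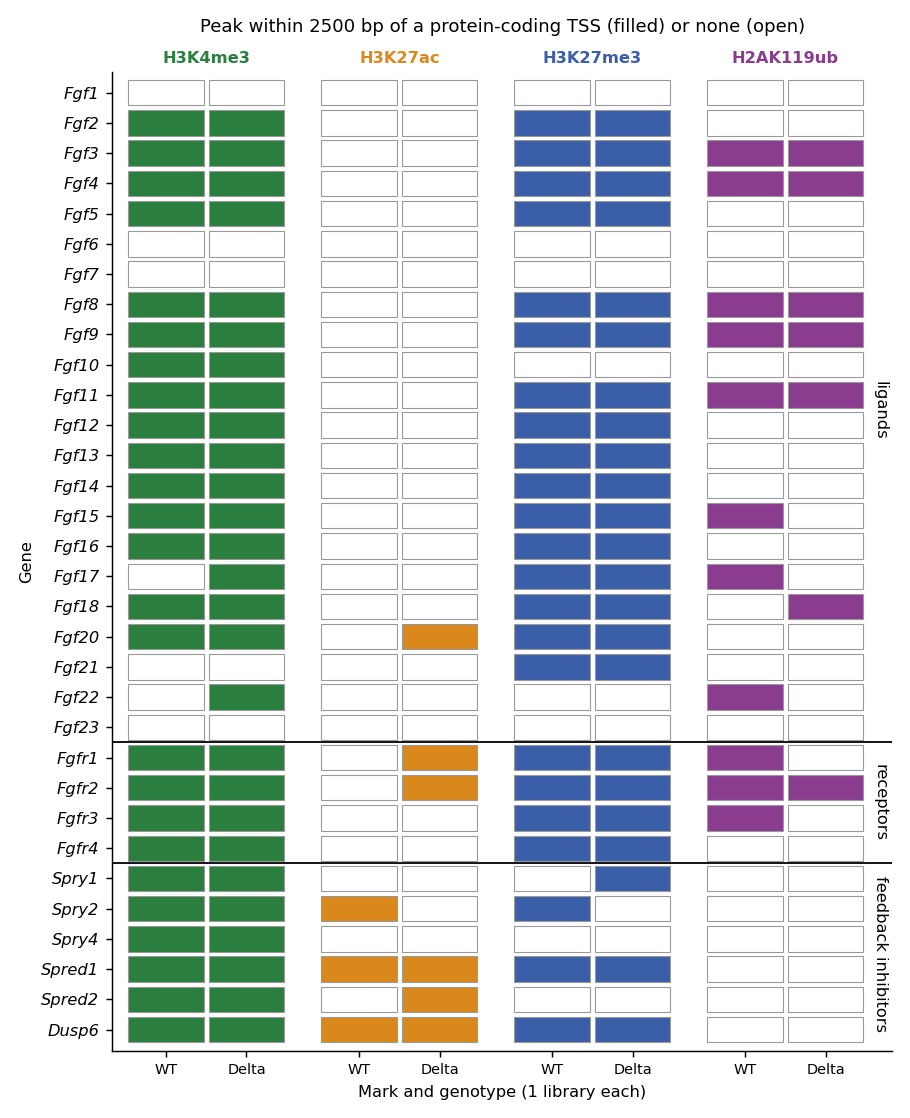
Peaks at the TSSs of the 32 FGF genes. Rows are genes, ordered as ligands, receptors and feedback inhibitors, and columns are the 4 marks in the WT and Delta libraries, with a filled cell for a peak within 2500 bp of a TSS. H3K4me3 and H3K27me3 fill most rows of ligands and all 4 receptors, whereas H3K27ac is filled at 3 members in WT and 6 in Delta.

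The 3 classes differed in their marks. All 4 receptor genes carried both H3K4me3 and H3K27me3 in both libraries, as did 14 of 22 ligand genes in WT and 15 in Delta. Receptor genes have several TSSs, and their windows covered 7049 to 16048 bp, against 5001 to 10069 bp at feedback inhibitor genes. With the most upstream TSS only, H3K27me3 was at 3 receptors and 3 feedback inhibitors in each library. At a −log10 q of at least 3 it was at 3 receptors in each, and at 1 feedback inhibitor in WT and 2 in Delta. Feedback inhibitor genes all carried H3K4me3, and 3 of 6 carried H3K27me3 in each library. No feedback inhibitor gene carried H2AK119ub in either library, and with 6 genes this is close to the 9.21% and 5% of all genes. The mark was listed at 8 ligand genes and 3 receptor genes in WT and at 6 and 1 in Delta. H3K27ac was listed in WT at 3 feedback inhibitor genes and at no ligand or receptor gene. In Delta it was listed at 3 feedback inhibitor genes, 2 receptor genes and 1 ligand gene. That was 50% of receptors and 50% of feedback inhibitors. The ligand call and 1 of the receptor calls lay only at TSSs shared with other genes. With shared TSSs left out, the mark in Delta was at 3 feedback inhibitor genes, 1 receptor gene and 0 ligand genes. With 4 receptors and 6 feedback inhibitors, a single gene moves such shares by many percentage points.

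**Figure D2:**
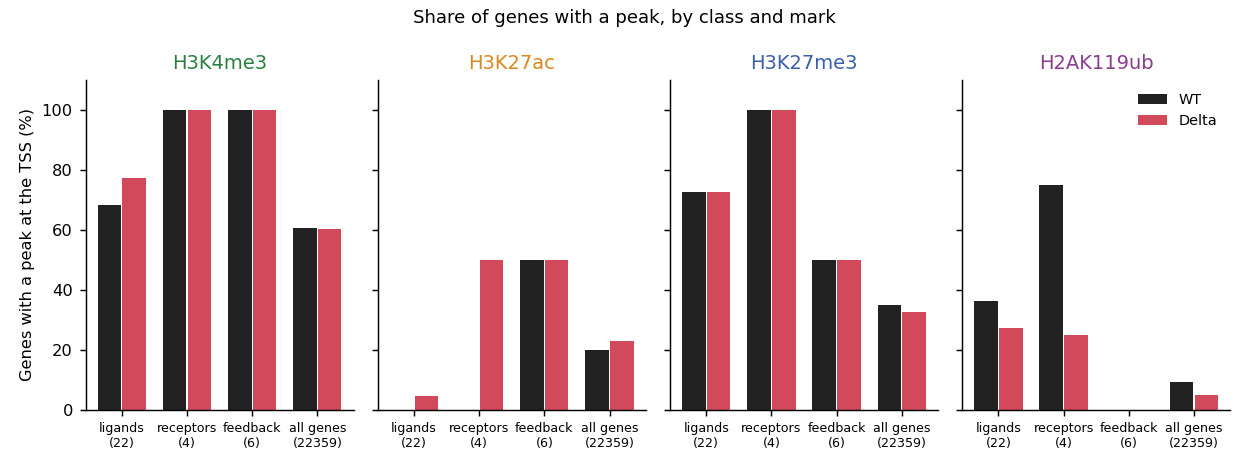
Share of genes with a peak at the TSS (vertical axis, percent) for ligands, receptors, feedback inhibitors and all 22359 protein-coding genes (horizontal axis), with WT in black and Delta in red, in 1 panel per mark. H3K27me3 is listed at 100% of receptors, 72.7% of ligands and 50% of feedback inhibitors in both libraries. H2AK119ub is listed at none of the 6 feedback inhibitors, against 9.21% of all genes in WT and 5% in Delta.

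The same set of marks was listed in both libraries at 21 of 32 members (17 ligands, 1 receptor and 3 feedback inhibitors), against 74.1% of all genes. H3K4me3 was never listed in WT alone (1.06% of all genes) and was listed in Delta alone at 2 members (0.684% of all genes). H3K27ac was listed in WT alone at 1 member (3.43% of all genes) and in Delta alone at 4 (6.37%). H3K27me3 was listed in WT alone at 1 member (7.04% of all genes) and in Delta alone at 1 (4.91%). H2AK119ub was listed in WT alone at 5 members (5.08% of all genes) and in Delta alone at 1 (0.863%). The H2AK119ub list as a whole was also the longer one in WT.

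The H3K27ac counts depended on TSSs that 2 members share with other genes. The peak counted for *Fgf20* in Delta (chr8:41393040-41393648, 609 bp) lay at the TSS of *Efha2*, where an upstream *Fgf20* transcript also starts. At the other TSS of *Fgf20*, which is not shared, H3K27ac was not listed and H3K27me3 covered 5338 bp (WT) and 5333 bp (Delta). The peak counted for *Fgfr2* in Delta (chr7:140313541-140316090, 2550 bp) lay at the promoter of *Ctbp2*, where a transcript annotated to *Fgfr2* starts far upstream of the main *Fgfr2* promoter. No H3K27ac was listed at the other *Fgfr2* TSSs in either library. In WT both shared promoters had H3K27me3 under the place of the Delta H3K27ac peak, over 733 bp at *Efha2* and 1357 bp at *Ctbp2*, and in Delta neither of these H3K27me3 peaks was listed. With TSSs left out that lie within 2500 bp of a TSS of another gene, 30 members remained, and H3K27ac was listed at 3 in WT and 4 in Delta, against 15.9% and 18.4% of the 19835 genes remaining. It was then listed in WT alone at *Spry2* (2.82% of genes) and in Delta alone at *Fgfr1* and *Spred2* (5.31%), so that no ligand gene had H3K27ac at a TSS of its own in either library.

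Among the ligands, the 15 paracrine genes, whose products signal to nearby cells, carried H3K27me3 at the same 10 in both libraries. Summed peak length, the total length of the peaks that reached the TSS windows of a gene, had a median of 4758 bp in WT and 5306 bp in Delta over the 16 ligand genes with H3K27me3, against 1725 bp and 1980 bp over all genes with this mark. The longest were at *Fgf9*, a ligand of lung and testis development (WT 10491 bp, Delta 9818 bp), and at *Fgf8*, a ligand needed in gastrulation (9268 bp and 10780 bp). *Fgf4*, which acts in the blastocyst, had 6365 bp and 8260 bp. *Fgf5*, a marker of the epiblast, had 3976 bp and 4185 bp, and *Fgf2*, a widely used growth factor of cultured cells, had 5637 bp and 3803 bp. Each of these genes was thus covered by H3K27me3 well beyond the median marked gene in both libraries. The other bivalent paracrine genes were *Fgf18*, which acts in skeletal growth (4677 bp and 5694 bp), *Fgf16*, a heart ligand (4625 bp and 5279 bp), *Fgf20*, given above, and *Fgf3*, given next, with *Fgf17* in Delta alone. H3K4me3 at the 15 ligand genes that had it in both libraries spanned 815 to 4785 bp in WT, and the ratio of Delta to WT ranged from 0.686 to 1.42 with a median of 0.973, close to 0.928 over all genes with both.

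**Figure D3:**
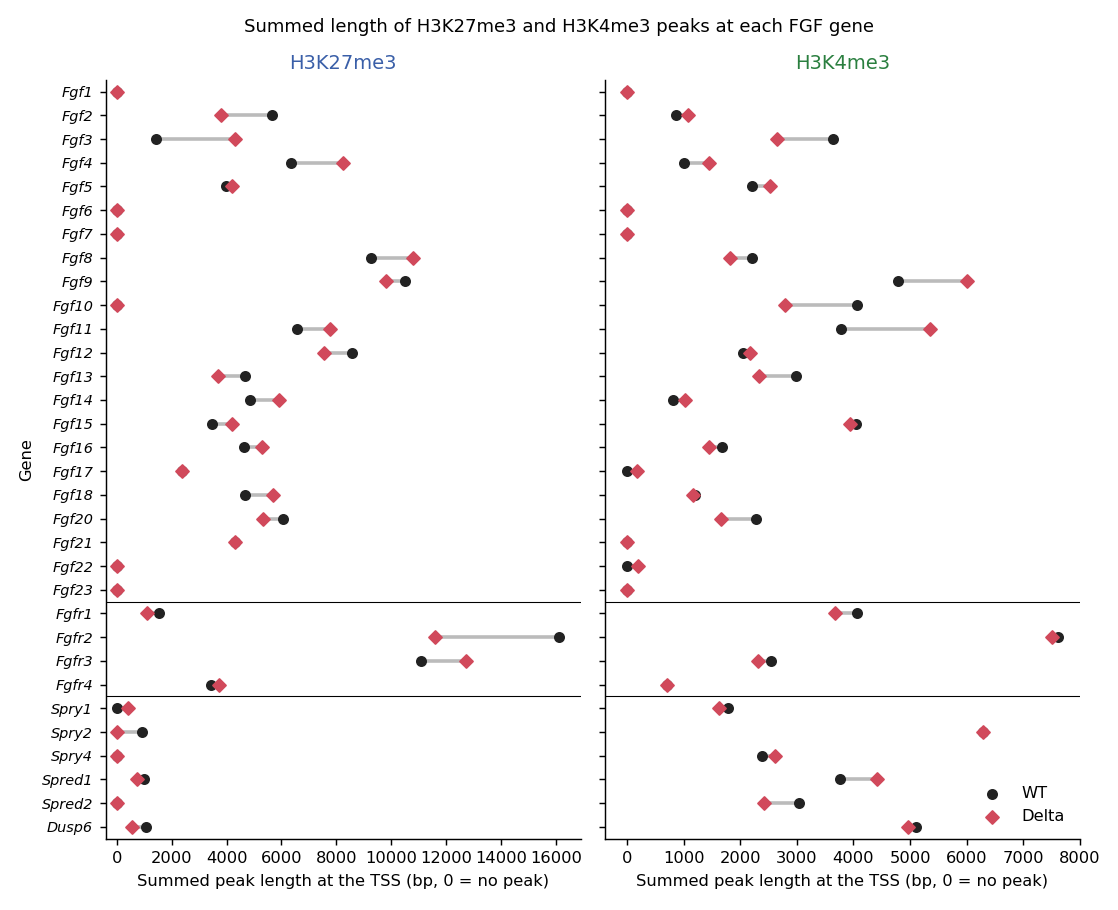
Summed length of H3K27me3 (left) and H3K4me3 (right) peaks at the TSSs of each FGF gene (horizontal axes, bp, with 0 for no peak), with WT as black circles and Delta as red diamonds. H3K27me3 spans 1088 bp or more at every ligand and receptor that has it and at most 1068 bp at the feedback inhibitors below the second line.

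Past a ratio of 1.5 in either direction, length differed for H3K27me3 at 1 ligand gene. *Fgf3*, a ligand of the tailbud and inner ear, had an H3K27me3 peak of 1420 bp in WT (chr7:152024726-152026145, fold enrichment 4.01, −log10 q 4.54) and of 4300 bp in Delta (chr7:152022799-152027098, 4.63 and 6.56), a ratio of 3.03. The Delta peak covered a TSS and the WT peak began 226 bp from one. Over all genes with H3K27me3 in both libraries, 13.5% were at least 1.5 times longer in Delta and 14.8% at least 1.5 times longer in WT, and among 22 members there was 1 of each, the other being *Dusp6*. No member passed this ratio for H3K4me3, for which 2.99% of all genes were longer in Delta and 9.87% longer in WT.

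*Fgf3*, *Fgf4* and *Fgf15* lie next to each other on chromosome 7 with no other protein-coding gene between them. *Fgf15* encodes an endocrine ligand that is made in the gut and the embryonic brain. In the 82871 bp from 10000 bp before *Fgf3* to 10000 bp after *Fgf15* (chr7:152013988-152096858), H3K27me3 peaks covered 11243 bp in WT and 17595 bp in Delta, or 13.6% and 21.2%. H2AK119ub peaks covered 5662 bp in WT and 1548 bp in Delta, or 6.83% and 1.87%. The Polycomb marks of this cluster thus differed between libraries in opposite directions. Summed over the genome, however, listed H2AK119ub peaks also spanned less in Delta (2.84 Mb) than in WT (5.26 Mb). Those of H3K27me3 spanned similar lengths (Delta 31.0 Mb, WT 30.4 Mb). The lower H2AK119ub coverage of the cluster thus went the same way as the whole list, and the part of this in the cluster values was not tested. H3K4me3 covered 8693 bp and 8022 bp, and H3K27ac was not listed in either.

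The 4 FGF homologous factors, *Fgf11* to *Fgf14*, encode proteins that stay inside the cell, bind voltage-gated sodium channels and are known from neurons. All 4 carried H3K4me3 and H3K27me3 in both libraries, and none carried H3K27ac. Their H3K27me3 lengths were 6551 bp in WT and 7768 bp in Delta at *Fgf11*, 8580 bp and 7557 bp at *Fgf12*, 4671 bp and 3670 bp at *Fgf13*, and 4838 bp and 5928 bp at *Fgf14*. The *Fgf11* peak also held a TSS of its neighbour *Tmem102* in both libraries. *Fgf14* and *Fgf13* are long genes, and at *Fgf14* H3K27me3 covered 0.692% of the gene in WT and 0.848% in Delta, so the mark was local to the TSSs.

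A smaller set of ligand genes carried few marks or none. *Fgf1*, *Fgf6*, *Fgf7* and *Fgf23* had no peak of any mark at a TSS in either library, as had 36.6% of all genes in WT and 37% in Delta. *Fgf1* encodes a broadly acting ligand, *Fgf6* is known from muscle, *Fgf7* (keratinocyte growth factor) signals from mesenchyme to epithelium and *Fgf23* is a bone hormone that controls phosphate. *Fgf23* nevertheless had H3K27me3 over its 3′ part, 6366 bp downstream of the TSS in WT (3246 bp long) and 5890 bp downstream in Delta (3291 bp), with H3K4me3 of 676 bp and 629 bp inside it. *Fgf10*, which limb and lung mesenchyme uses, had no mark but H3K4me3, with a length of 4062 bp in WT and of 2788 bp in Delta. *Fgf21*, a liver hormone, was counted for H3K27me3 (4301 bp and 4290 bp) through peaks that hold the TSS of its neighbour *Fut1*. The TSS of *Fgf21* itself lay 62 bp outside the WT peak and 726 bp outside the Delta peak.

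*Fgf17* and *Fgf22* were the members with H3K4me3 in Delta alone. *Fgf17*, a relative of *Fgf8*, had a Delta peak of 174 bp (chr14:71041747-71041920) with a −log10 q of 2.29, inside H3K27me3 peaks of 2389 bp in WT and 2367 bp in Delta. *Fgf22*, known from skin and synapses, had a Delta peak of 183 bp (chr10:79217896-79218078) with a −log10 q of 4.08 and no H3K27me3. Both Delta peaks were far shorter than the median of all H3K4me3 peaks of that list, 1197 bp. The same 2 genes had H2AK119ub in WT alone.

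H2AK119ub was listed in both libraries at 5 ligand genes, *Fgf3*, *Fgf4*, *Fgf8*, *Fgf9* and *Fgf11*, each of which also had H3K27me3 in both. At *Fgf8* it was the longest among members, at 6516 bp (WT) and 3701 bp (Delta), each in 2 peaks. It was 1341 bp in WT and 1895 bp in Delta at *Fgf9*, and 1500 bp and 1229 bp at *Fgf4*. At *Fgf11* it was 4269 bp and 1525 bp, and at *Fgf3* 1147 bp and 319 bp, where the WT and Delta peaks did not overlap each other. At 3 of the 6 members with the mark in both libraries (*Fgf3*, *Fgf8* and *Fgf11*, ratios of 0.278, 0.568 and 0.357) the Delta length was shorter by at least 1.5 times, and it was longer at 0, against 45.4% and 20.1% of all genes with both. For *Fgf8* the ratio was 0.842 when only bases inside the TSS window were counted (4301 bp in WT and 3623 bp in Delta). It was 0.793 with windows of 5000 bp, which took in further Delta peaks of 971 bp and 497 bp, 2526 bp and 4579 bp from a TSS. *Fgf8* was thus not past 1.5 under either setting. For *Fgf11* it was 0.227 with only bases inside the window and 0.135 with windows of 1000 bp, so that *Fgf11* stayed past 1.5 in each. The WT peak counted for *Fgf11* ran upstream of the gene and also held a TSS of its neighbour *Tmem102*. Over *Fgf11* itself the mark covered 438 bp in WT and 513 bp in Delta, so the difference in length lay upstream of the gene.

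H2AK119ub in WT alone was found at *Fgf15* (2717 bp in 2 peaks, −log10 q up to 1.97), *Fgf17* (373 bp, 1.52) and *Fgf22* (525 bp, 1.44). In Delta alone it was found at *Fgf18* (498 bp, chr11:33046728-33047225), with a fold enrichment of 4.74 and a −log10 q of 2.87, the highest −log10 q of any Delta H2AK119ub peak at a member. None of the ligand peaks of this mark reached a −log10 q of 3. The *Fgf22* peak lay 2212 bp from a TSS, near the edge of the window, and 1 of 2 Delta peaks of *Fgf11* lay 2411 bp away, the largest distance of the 148 peaks counted, 109 of which covered a TSS.

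**Figure D4:**
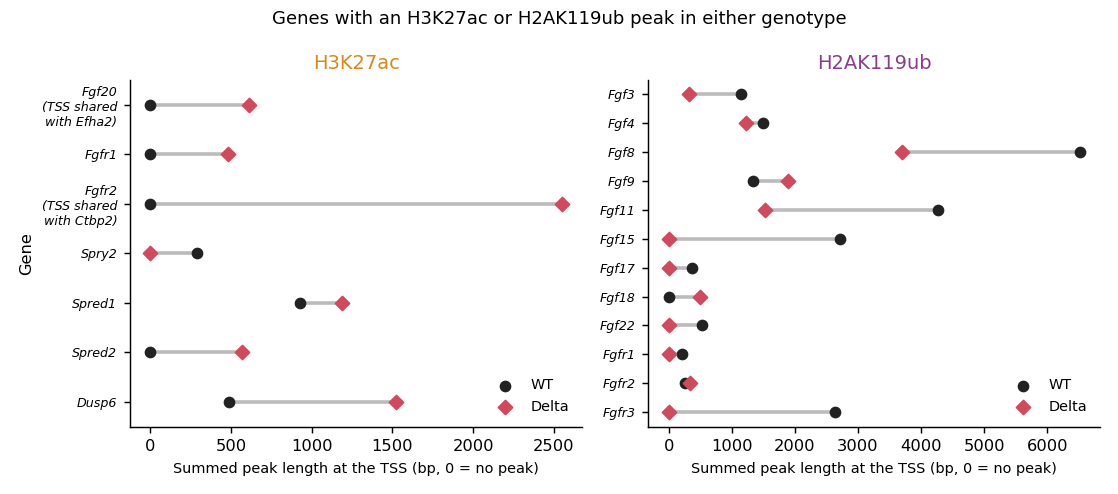
Summed length of H3K27ac (left) and H2AK119ub (right) peaks at the TSSs of every FGF gene that had the mark in at least 1 library (horizontal axes, bp, with 0 for no peak), with WT as black circles and Delta as red diamonds. For H3K27ac, 4 genes have a peak in Delta alone, of which *Fgf20* and *Fgfr2* share the TSS with another gene, and for H2AK119ub 5 genes have a peak in WT alone.

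At the receptor genes H3K4me3 and H3K27me3 were listed in both libraries throughout, and H2AK119ub and H3K27ac differed. H3K4me3 was 4062 bp in WT and 3678 bp in Delta at *Fgfr1*, 7621 bp and 7517 bp at *Fgfr2*, 2534 bp and 2314 bp at *Fgfr3*, and 708 bp and 700 bp at *Fgfr4*, a ratio of 0.905 to 0.989. Of the *Fgfr2* sums, 4934 bp in WT and 4606 bp in Delta lay at the promoter shared with *Ctbp2*. The peak at the main *Fgfr2* promoter was 2687 bp in WT and 2911 bp in Delta, a ratio of 1.08. H3K27me3 was 16104 bp in WT and 11599 bp in Delta at *Fgfr2*, a receptor of epithelia and bone, with part of both sums at the shared distant TSS. It was 11074 bp and 12734 bp at *Fgfr3*, a receptor that restrains growth of cartilage, and 3429 bp and 3711 bp at *Fgfr4*, known from liver and muscle. *Fgfr1* stood apart with 1522 bp and 1088 bp, at a fold enrichment of 2.97 in WT and 3.34 in Delta, below the 3.99 and 4.18 of the median gene with H3K27me3.

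At *Fgfr1*, the receptor used by mesoderm, H3K27ac was listed in Delta alone, as a peak of 483 bp (chr8:26629387-26629869) with a fold enrichment of 4.14 and a −log10 q of 2.90 that covered 1 of its 6 TSSs and overlapped an H3K27me3 peak in each library. H2AK119ub was listed there in WT alone, over 205 bp (chr8:26624928-26625132) at a fold enrichment of 3.58 and a −log10 q of 2.05, near the most upstream TSS and not at the place of the H3K27ac peak. Chromosome 8 as a whole had somewhat more such genes, with H3K27ac in Delta alone at 8.69% and H2AK119ub in WT alone at 7.95% of 1082 genes, and the part of this in the *Fgfr1* values was not tested. At *Fgfr3*, H2AK119ub was listed in WT alone, as peaks of 217 bp and 2416 bp whose −log10 q reached 2.73. Outside the TSS windows *Fgfr3* had 4 more H2AK119ub peaks in WT (208 to 1564 bp long) and 0 in Delta. *Fgfr2* had H2AK119ub in both, of 265 bp and 339 bp. *Fgfr4* had none at a TSS, and 221 bp in WT 3561 bp downstream of one.

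The feedback inhibitor genes carried H3K4me3 and no H2AK119ub at a TSS. H3K27me3 was at 3 of 6 in each library (50%, against 34.8% of all genes in WT and 32.7% in Delta). The highest fold enrichment of their H3K4me3 peaks had a median of 8.36 in WT and 7.33 in Delta, against 5.80 and 5.22 at ligand genes and 7.37 and 6.59 over all genes with the mark. *Spry2*, which encodes a Sprouty protein, had the longest H3K4me3 of the class (6299 bp in WT, 6292 bp in Delta). *Dusp6* had 5109 bp and 4964 bp, *Spred1* 3755 bp and 4419 bp, *Spred2* 3028 bp and 2417 bp, *Spry4* 2380 bp and 2619 bp, and *Spry1* 1772 bp and 1614 bp. The H3K27me3 that was listed was short, with a median of 993 bp in WT and 561 bp in Delta over 3 genes each. *Spry4* had H3K4me3 alone, at a TSS shared with 9630014M24Rik.

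At *Dusp6* the H3K27ac peak, which lay upstream of the TSS, was 486 bp in WT (chr10:98723900-98724385, fold enrichment 3.56, −log10 q 2.16) and 1525 bp in Delta (chr10:98723753-98725277, 4.84 and 3.86), a ratio of 3.14. Its H3K27me3 peak, downstream of the TSS, was 1068 bp in WT (fold enrichment 3.68, −log10 q 3.34) and 561 bp in Delta (2.82 and 1.58), a ratio of 0.525. The WT H3K27ac peak lay 1480 bp from the TSS, so windows of 1000 bp gave no ratio. The acetylated stretch was thus longer and the methylated stretch shorter in Delta at this gene. Of all genes with H3K27ac in both libraries, 23.6% were at least 1.5 times longer in Delta and 19.1% at least 1.5 times longer in WT. Of the 2 members with this mark in both, *Dusp6* was 1, and the other was *Spred1*, at 929 bp in WT and 1189 bp in Delta.

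*Spry2* and *Spred2* each had H3K27ac in 1 library. *Spry2* had H3K27ac in WT alone (288 bp, chr14:106295734-106296021), at a fold enrichment of 3.36 and a −log10 q of 1.53, among the weaker peaks of that list. It lay inside an H3K27me3 peak of 903 bp that was also listed in WT alone (chr14:106295171-106296073), at a fold enrichment of 2.97 and a −log10 q of 1.79. *Spred2* had H3K27ac in Delta alone (568 bp, chr11:19824539-19825106), at a fold enrichment of 4.51 and a −log10 q of 4.06, starting 94 bp from a TSS, with no Polycomb mark in either library. *Spry1* had H3K27me3 in Delta alone (417 bp, chr3:37539250-37539666), at a fold enrichment of 3.69 and a −log10 q of 3.002. *Spred1* had the same 3 marks in both, with H3K27me3 of 993 bp in WT and 746 bp in Delta.

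Away from TSSs, peaks were assigned to the gene with the nearest TSS up to 100 kb away, and H3K27ac was found in Delta alone. A peak of 189 bp lay beyond the end of *Spry1*, 14091 bp downstream of a TSS of this gene (chr3:37553093-37553281, −log10 q 1.80). A peak of 282 bp lay within *Spred2*, 32200 bp downstream of a TSS (chr11:19886773-19887054, −log10 q 3.23). These were 2 of 32 members in Delta and 0 in WT, against 2.34% and 2.22% of all genes. Distal H3K27me3 was assigned to 11 members in WT and 8 in Delta (34.4% and 25%), against 10.1% and 10% of all genes. Among these, a domain downstream of *Spry4*, 25483 bp from its TSS in WT, was 4621 bp long in WT and 3321 bp in Delta, and *Fgf8* had peaks of 3508 bp and 855 bp in WT and of 2425 bp and 834 bp in Delta downstream of the gene. *Fgf18* had 4 such peaks in WT (408 to 3124 bp) and 0 in Delta, and *Fgfr1* had 3 in Delta (397 to 908 bp) and 0 in WT.

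Of 45 further genes of the FGF pathway (klotho co-receptors, adaptors, signal transducers, ETS and immediate early targets, further inhibitors and heparan sulphate genes), 43 were found, and *Hras* and *Spry3* were not used here. They carried H3K4me3 at 39 in WT and 40 in Delta (90.7% and 93%, against 60.7% and 60.3% of all genes). H3K27ac was listed at 15 and 20 (34.9% and 46.5%, against 19.9% and 22.8%). H3K27me3 was listed at 26 and 28 (60.5% and 65.1%, against 34.8% and 32.7%), and H2AK119ub at 6 and 3 (14% and 6.98%, against 9.21% and 5%). H3K4me3 and H3K27me3 were found together at 25 in WT and 28 in Delta (58.1% and 65.1%, against 32.4% and 30.1%). H3K27ac was listed in WT alone at 2 (4.65%, against 3.43% of all genes) and in Delta alone at 7 (16.3%, against 6.37%). TSSs shared with other genes were not left out of these counts. H2AK119ub was listed in WT alone at 5 (11.6%, against 5.08% of all genes) and in Delta alone at 2 (4.65%, against 0.863%).

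The longest H3K27ac and H2AK119ub calls made in 1 library among these genes were at 6 of them. *Etv4*, an ETS factor that FGF signalling induces, had H2AK119ub in WT alone (1909 bp), with H3K27me3 of 4645 bp in WT and 4453 bp in Delta. Its relative *Etv5* had H3K27ac in Delta alone (1293 bp) and H3K27me3 in WT alone (524 bp). *Gab1*, an adaptor, had H3K27ac in Delta alone (918 bp), with H3K27me3 in both. *Frs3*, an adaptor of FGF receptors, and *Egr1*, an immediate early target, had H2AK119ub in Delta alone (1646 bp and 813 bp). *Flrt1*, a transmembrane partner of FGF receptors, had H2AK119ub in WT alone (762 bp) and no other mark in either library.

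CpG number around the TSS differed between members with and without marks at a TSS. Counted in the 5001 bases around the TSS described for each gene, it was 44 to 83 at the 4 members without any mark at a TSS, with a median of 64. At the 20 members with H3K4me3 and H3K27me3 in both libraries it was 77 to 274, with a median of 198, and the ranges overlapped through *Fgf14* (77) only. At the other 8 members it was 82 to 297, where *Fgf10*, *Fgf17*, *Fgf21* and *Fgf22* had 105, 82, 90 and 98 and the 4 feedback inhibitor genes *Spry1*, *Spry2*, *Spry4* and *Spred2* had 239, 297, 180 and 194. The TSS described was chosen through WT H3K4me3 peaks where a gene had them, so the marks partly set where CpGs were counted. At the most upstream TSS of each gene, the 20 members had 85 to 363, with a median of 191.5. There the 4 members without any mark at a TSS had 44 to 83, with a median of 64. Of these, *Fgf23* had H3K27me3 and H3K4me3 away from its TSS in both libraries, and *Fgf1* had distal H3K27me3 in WT. The median of all genes was 96 at their most upstream TSS. The members without marks at a TSS thus lay below that median. The feedback inhibitor genes all lay well above it, whether or not they carried H3K27me3.

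**Figure D5:**
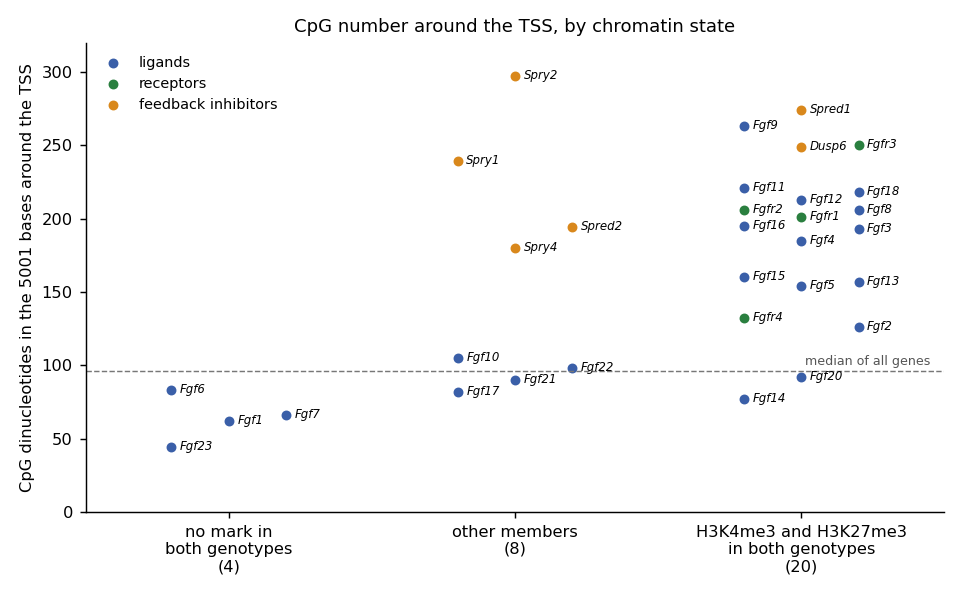
CpG dinucleotides in the 5001 bases around the TSS described (vertical axis) of each FGF gene, grouped by the marks listed in the libraries (horizontal axis), with ligands in blue, receptors in green and feedback inhibitors in orange. The TSS described was chosen through WT H3K4me3 peaks where a gene had them. The dashed line is the median of all genes at their most upstream TSS, 96. The 4 members without a mark at a TSS lie between 44 and 83.

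Within the 300 bases from 250 before to 50 from the most upstream TSS, the ratio of observed to expected CpGs had a median of 0.587 at ligand, 0.667 at receptor and 0.943 at feedback inhibitor genes, against 0.542 for all genes. The E-box CANNTG, the motif class that bHLH proteins such as SCL bind, was found on either strand in this window at 24 of 32 members (75%) and in 69.4% of all promoters. AGATAA is a form of WGATAR (W for A or T, R for A or G), the motif of the GATA factors that work with SCL. The other forms were not counted. AGATAA was found on either strand at 1 member (3.12%) and in 10.3% of all promoters. Around the TSS described for each member, the E-box was found at 26 members (81.2%) and AGATAA at 2 (6.25%). These are matches of letters and not sites of binding, and the motifs do not overlap each other.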

How the data were processed

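Members and gene lists were chosen with earlier results of these data known. Per the study's methods, reads were aligned to mm9 and dm3, and broad peaks were called by the authors with MACS2 2.0.10 in each library against the input of its genotype, without pooling. The submitters' processing notes also name Bowtie, SAMtools, Trim Galore and bedtools. The methods name spike-in scaling for densities but give none for calling peaks. The deposited lists give positions, a fold enrichment (a ratio over local background), −log10 p-values, −log10 q-values and a score, all made by the authors. This score, a deposited whole number close to 10 times the −log10 q-value, was not used. The largest q-value of the lists was 0.0500, and the lists hold no read depth. Read numbers stated by the study were not used here.

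Coordinates are 1-based on mm9. Genes and TSSs of protein-coding transcripts came from GENCODE M1 (22359 genes, chromosome M left out). For *Fgfr1*, which has 2 gene IDs, the ID with more TSSs was used. Peaks within 2500 bp of a TSS (at least 1 bp) were counted and their whole lengths summed, and Delta over WT ratios were called past 1.5. Distal peaks lay farther than 2500 bp from every coding TSS and within 100 kb of the nearest. With 1 library per mark and genotype no test was made. Instead, counts of members and of pathway genes are set beside those over all genes.

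All members are named. Lengths were given for members with a mark in 1 genotype only or past the length ratio. Positions, fold enrichments and −log10 q-values were given for some of these. Lengths were also given for 6 pathway genes with the longest H3K27ac or H2AK119ub call in 1 genotype only. Printed sequences followed the same order, from members off chromosome 18. The TSS described was the most upstream TSS not shared with another gene inside the longest WT H3K4me3 peak that reached such a TSS. A shared TSS was used where a gene had no other (*Fgf21* and *Spry4*), and the most upstream TSS where no such peak held one. It differs from the most upstream TSS at several members (*Fgf20* and *Fgfr1* among them), and *Fgfr2* was left out because its stretch met an exon. *Fgf7* and *Fgf6* were added after values were seen. Some sequences and genes are not reported here. CpG counts and motifs were read on both strands from NCBIM37.

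Alternatives were a −log10 q or fold enrichment of at least 3, windows of 1000 and 5000 bp, the most upstream TSS only, at least 500 bp covered, equal numbers of top peaks by −log10 p, and only bases inside the window. Leaving out shared TSSs was added after seeing the data. Overlap code was tested on simulated data (300 genes, 0 of which differed from a count base by base). Analyses used Python 3.11.15, NumPy 2.4.6 and pandas 2.3.3, and figures matplotlib 3.10.9.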

Additional observations from a re-analysis of the deposited data

How the results depend on the processing

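No paired analysis was possible because each mark and genotype had 1 library. Over all alternatives, 370 of 419 counts and median ratios stayed within 1.5 times the value reported and 49 did not. Of 365 length ratios of single genes, none that had passed 1.5 changed direction, and 4 moved by over 1.5 times. The cause of each change below was not tested, beyond what the alternative itself removes. At a −log10 q of at least 3, H2AK119ub was left at 0 members, 0 ligands and 0 receptors in WT and in Delta, with 0 in WT alone, 0 in Delta alone and 0 shortened. H3K27ac was then left at 1 member in WT, a feedback inhibitor, with 0 in WT alone, and at 1 receptor in Delta, with a median length ratio of 1.28 and 0 members longer. H3K27me3 was then at 1 feedback inhibitor in WT, with 2 members in WT alone, 2 in Delta alone and 0 shortened. H3K4me3 was then at 2 members in WT alone and 1 in Delta alone, with 1 shortened. With at least 500 bp covered, H2AK119ub was at 7 members in WT and 4 in Delta, at 1 and 0 receptors, with 3 in WT alone and 0 in Delta alone. There H3K27ac was at 1 member in WT, a feedback inhibitor, with 0 in WT alone, and at 1 receptor in Delta, and no member had H3K27me3 or H3K4me3 in Delta alone (0 and 0). With the most upstream TSS only, H2AK119ub was at 0 receptors in Delta and at 2 members in Delta alone, H3K27ac at 1 receptor in Delta, and H3K27me3 at 2 members in WT alone. With equal numbers of top peaks, H2AK119ub was at 3 members in WT alone and 2 in Delta alone. At a fold enrichment of at least 3, H3K27me3 was at 2 members in Delta alone, with 0 shortened. With windows of 1000 bp, the H3K27ac length ratio had a median of 1.28 with 0 members longer, and H3K27me3 was longer at 2 members. Windows of 5000 bp moved none of 54 such values, and counting only bases inside the window none of 12. With shared TSSs left out, H3K27ac in Delta was at 0 ligands, 1 receptor and 2 members in Delta alone, and H3K4me3 was shortened at 1 member. The lists hold no reads or depth for regions without a peak, so a peak missing from a list does not show that the mark was absent.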
